A study of Mus musculus with 12 samples.

Results

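Distal control-only regions are stretches of open chromatin that were called at day 3 in both control libraries of a Foxk1 knockout series, that had no call nearby in either knockout library, and that lay far from protein-coding gene ends. They were chosen by the measured day 3 calls themselves, so the day 3 contrast describes them and tests nothing. Day 3 peak summits on chromosomes 1 to 19 and X were merged into 1 region where they lay within 250 bp of each other. A region was a member where it held a summit of both iFoxk1_ND_D3 libraries, had no summit of any score within 1 kb in either KO_D3 library, and was more than 10 kb from both ends of every protein-coding gene (mm10). Of 85620 merged day 3 regions, 3134 were members. They made up 10.6% of the 29548 distal regions that were reproducible, which means called in both libraries of at least 1 genotype at day 3.

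The series holds 12 ATAC-seq libraries of mouse embryoid bodies, 2 in each of 6 groups. The control groups at days 3 and 5 are iFoxk1_ND, the iHA-Foxk1 embryonic stem cell line, whose name marks an inducible HA-tagged Foxk1, grown with no doxycycline; the day 10 control is labelled Control only, and its line is not named. The knockout groups at days 3, 5 and 10 (KO_D3, KO_D5 and KO_D10) come from Foxk1 KO stem cells. The labels mark all 12 libraries NoDox, and they do not say how the knockout was made, how many clones were used or whether replicate libraries are separate cultures, so p-values measure only a spread between libraries that may be technical. All lines were expanded with LIF on irradiated mouse fibroblast feeders, which were removed by a plating step, and were then differentiated in shaken culture in a mesodermal medium.

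ATAC-seq uses the transposase Tn5, which inserts adapters where DNA is not wrapped tightly in nucleosomes. Open regions far from genes are often enhancers, which transcription factors open and close as cells change state, and they turn over faster between cell types than promoters do. Embryoid bodies under mesodermal conditions pass through a state like the primitive streak, in which T-box and homeobox factors such as Eomes, Mixl1 and Gsc are active, before cardiac, blood and vessel progenitors appear. Foxk1 is a forkhead transcription factor that is known as a repressor and as a partner of the Sin3 complex.

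Of the 3134 members, 23 lay in a RefSeq start window, the 300 bases from 250 before to 50 after an annotated gene start in GRCm38.p6. These are the members for which sequence was at hand. Protein-coding genes own 7 of the windows (Magi1, Mob2, Rex2, Olfm3, Cers3, Gnas and Sema4d), each at an internal start more than 10 kb from the ends of its gene, and long noncoding RNAs own 16. The windows below, written 5′ to 3′ on the strand of the gene, are the pair with the best day 3 rank (Magi1 and 2900052N01Rik) and the pair with the letters TGTTTAC, a core forkhead motif, on either strand (Gm34793 and Gm4319). Capitals mark TAATCC (paired homeobox) in Magi1, CAGCAGG (Zic) in 2900052N01Rik, and the forkhead letters in the others.
Magi1: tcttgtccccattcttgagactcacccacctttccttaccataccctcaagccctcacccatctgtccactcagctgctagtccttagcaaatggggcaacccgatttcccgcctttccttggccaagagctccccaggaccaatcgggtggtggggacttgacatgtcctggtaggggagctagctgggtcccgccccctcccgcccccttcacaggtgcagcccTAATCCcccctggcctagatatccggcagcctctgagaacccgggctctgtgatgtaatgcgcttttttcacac
2900052N01Rik: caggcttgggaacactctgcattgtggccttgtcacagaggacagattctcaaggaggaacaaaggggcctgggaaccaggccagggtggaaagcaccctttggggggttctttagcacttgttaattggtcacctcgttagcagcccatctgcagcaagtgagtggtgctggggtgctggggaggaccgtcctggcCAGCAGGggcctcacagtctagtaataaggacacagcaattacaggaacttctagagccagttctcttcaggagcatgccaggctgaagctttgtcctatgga
Gm34793: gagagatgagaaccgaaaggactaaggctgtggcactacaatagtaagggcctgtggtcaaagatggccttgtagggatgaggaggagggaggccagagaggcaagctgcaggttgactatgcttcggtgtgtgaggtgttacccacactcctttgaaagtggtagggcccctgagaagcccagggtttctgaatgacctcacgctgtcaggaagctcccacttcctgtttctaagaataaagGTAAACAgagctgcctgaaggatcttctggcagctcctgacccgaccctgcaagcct
Gm4319: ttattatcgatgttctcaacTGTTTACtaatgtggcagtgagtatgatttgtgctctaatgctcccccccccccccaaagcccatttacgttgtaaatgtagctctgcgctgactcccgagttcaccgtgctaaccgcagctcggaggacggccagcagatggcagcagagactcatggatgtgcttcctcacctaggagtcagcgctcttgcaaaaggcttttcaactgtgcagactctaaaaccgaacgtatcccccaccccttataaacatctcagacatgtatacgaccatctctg
The Magi1 window is chr6:93913641-93913940 on the minus strand, and the control summits stood 82 and 77 bp before the start, within 5 bp of each other. The 2900052N01Rik window is chr9:46913353-46913652 on the plus strand, with the summits 205 and 164 bp before the start. The Gm34793 window is chr11:72946325-72946624 on the plus strand and the Gm4319 window is chr1:72123709-72124008 on the minus strand. Forkhead letters were in 2 of 23 member windows (8.70%) and in 3.67% of all 32619 start windows, which are 300 bases each; AGATAA, a sequence bound by GATA factors, was in 4 of 23 against 11.2% of all windows. Octamer, TCF/LEF, paired homeobox and Zic letters were in 1, 1, 2 and 4 of 23, against 1.75%, 0.944%, 7.04% and 10.6% of all windows. T-box, Sox, TEAD and CTCF letters were in 0 of 23, against 1.28%, 3.68%, 4.32% and 1.29%. With 23 windows these shares rest on a few sequences, and a match is only a run of letters. No later summit was found at the Magi1 and 2900052N01Rik windows in any of the 8 libraries of days 5 and 10. The region at Gm34793 was called again in both KO_D5 libraries and in iFoxk1_ND_D5 replicate 2, and the region at Gm4319 in KO_D5 replicate 1 only.

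The day 3 lists were of like length, 53473 and 54100 summits in the control libraries and 59006 and 53456 in KO. Later lists were uneven: iFoxk1_ND_D5 held 14519 and 34040 summits, KO_D5 48391 and 42129, Control_D10 10548 and 7764, and KO_D10 4028 and 4755. No read counts came with the lists, so sequencing depth is unknown, and a region without a summit is one that was not called, not one shown to be closed. In bulk tissue, a smaller number of open cells and less access per cell cannot be told apart. The tag D7 stands in the peak names of both KO_D5 lists where the labels say day 5, and names at day 10 lack the duplicate-removal tag of the other days; the labels were followed. At day 3, summits lay within 1 kb of an end of 5 of 5 streak markers in both control libraries and of 5 and 4 of 5 in KO (Evx1 was missed in KO_D3 replicate 2), of 3 of 4 pluripotency markers in all 4 libraries (Esrrb was not called) and of 3 of 4 fibroblast markers in all 4 (Postn was not called). Open gene ends of fibroblast genes were thus called alike in both genotypes, and the part of leftover feeders in the results was not tested. Inside Foxk1 or within 1 kb of it, 6 and 6 summits were called in the control libraries at day 3 and 3 and 5 in KO, and since the deleted part is not given this does not check the genotype.

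Members were mostly weak peaks. A rank is given here as the percent of a library's summit list that scored as high or higher, so that 1% is near the top; the score is the −log10 p-value or q-value of the peak caller. The median member ranked at 66.5% in iFoxk1_ND_D3 replicate 1 and at 67.4% in replicate 2, with median scores of 6.88 and 7.01. Regions called in all 4 day 3 libraries, by the same measure, had medians of 41.2% and 40.7% and scores of 14.1 and 14.8. Members were in the last 50% of the list in 75.7% and 74.5% of cases, and 6 and 7 members reached the top 10%. The mirror class, 3708 distal KO-only regions (12.5% of the reproducible distal regions), was weaker still, with medians of 69.2% and 74.7% in its own libraries.

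**Figure D1:**
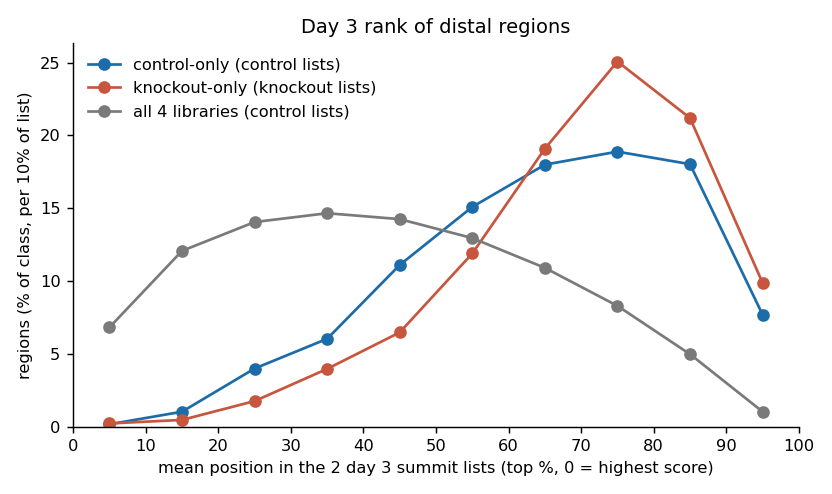
Share of each class of distal day 3 regions (y axis, percent of the class) by the mean rank of the region in the 2 libraries named in the key (x axis, percent of the summit list, 0 being the highest score), in steps of 10%. Control-only regions peak at 70 to 80% (18.9% of them), and regions of all 4 libraries peak at 30 to 40% (14.7%).

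Control regions with no KO call nearby were rarer among high ranks. Of 4315 distal regions whose mean rank over both control libraries was in the best 25%, 91 were members (2.11%). The share was 8.85% in the next 25%, 19.2% in the one after, and 31.7% of 3465 regions in the last 25%. These shares use the values that chose the members and are given without a test. The same shares for KO-only regions in the KO libraries ran from 1.19% to 40.5%, so 1-genotype calls of both kinds were commonest among weak peaks.

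Both control libraries agreed on the members less well than on regions called everywhere. Across members, log10 scores of the libraries correlated with Pearson's r of 0.674 and Spearman's rho of 0.656 over 3134 regions of the same 2 libraries, against 0.852 and 0.847 over 15506 regions called in all 4. The paired summits were 49 bp apart at the median, close to the 46 bp of the regions called in all 4. Median offsets were thus alike while scores agreed less, over a narrower range of scores. The rule itself limits the offsets of members, whose longest span was 251 bp, against 688 bp for regions called in all 4. The like offsets therefore do not show equal agreement in position. Only 59 members (1.88%) were in the top 25% of both lists.

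At the edges of the rule, the nearest KO summit to any member was 1002 bp away and the median member had one at 15774 bp. A KO summit between 1 and 2 kb away was found for 166 members (5.30%), and none within 10 kb for 2042 (65.2%). A further 320 distal control regions had a KO summit outside the region but within 1 kb, 251 to 995 bp away, and were left out. The member nearest to a gene end was 10016 bp from it, and the control-only region just inside that limit was 9991 bp away. Control-only regions within 10 kb of a gene end numbered 925, of which 137 were within 1 kb. With iFoxk1_ND_D3 replicate 1 or 2 left out, 7016 and 7129 regions met the rule, so asking for both libraries removed more than 50% of them. At any distance, control-only regions were 7.61% of 53367 reproducible day 3 regions.

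The highest-ranked members had summits in both control libraries far above the rest of the class, and most of them were not seen again. First was an intergenic region at chr8:21010831-21010836, 14.7 kb from Defa21, a gene of the intestinal alpha-defensin family, which ranked at 0.911% and 0.852% with scores of 94.4 and 103.9. Next were chr15:47354902-47354945, 226 kb from Csmd3 (3.73% and 7.71%), chr1:111830066-111830087, 28.6 kb from Dsel, a gene related to dermatan sulfate epimerase (6.89% and 7.91%), and chrX:75744705-75744730, 40.9 kb from Pls3, which encodes plastin 3, a protein that bundles actin (7.14% and 11.99%). Those near Defa21, Csmd3 and Dsel had no summit in any of the 8 later libraries. The region near Pls3 was called in 7 of the 8, with iFoxk1_ND_D5 replicate 1 the exception.

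The next 8 in rank lay near Med21, Tmem121, Trabd2b, Parp11, Cth, Cfc1, Klf12 and Hgf, with mean ranks from 9.91% to 14.8%. Cfc1 encodes Cryptic, a co-receptor for Nodal and its relatives, and Hgf encodes hepatocyte growth factor. The region near Cfc1, chr1:34519364-34519369, was 16.3 kb from the gene and ranked at 17.0% and 9.62%; it was called again in both KO_D5 libraries and in iFoxk1_ND_D5 replicate 2. The one near Hgf, chr5:16525228-16525289, ranked at 15.3% and 14.2% and was not called later. Of the 12 best-ranked members, 8 had no later summit.

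Members lay at distances from genes like those of other distal regions, and a slightly larger share of them was inside genes. The median member was 61.4 kb from a gene end, against 60.6 kb for KO-only regions and 62.1 kb for regions of all 4 libraries. Inside a protein-coding gene, in its introns or internal exons, lay 1232 members (39.3%, exact 95% interval 37.6 to 41.0), against 34.8% (33.3 to 36.4) and 35.4% (34.6 to 36.1) for those classes. For all reproducible distal regions the share was 36.2%. The intervals treat regions as independent and cover counting error only, though 1018 members lay within 100 kb of another member. A RefSeq start window held 0.734% of members, 0.836% of KO-only regions and 2.58% of regions of all 4 libraries, and 324 members (10.3%) lay in a long noncoding RNA gene. Beyond 500 kb from any gene end were 219 members (6.99%). The farthest lay 1.87 Mb from Celf4 on chromosome 18, 1.82 Mb from Pcdh7, 1.74 Mb from Pcdh20, 1.74 Mb from Cdh20 and 1.63 Mb from Gpc5. Celf4 encodes an RNA-binding protein, Pcdh7, Pcdh20 and Cdh20 encode cadherins, and Gpc5 encodes a glypican, genes that border large gene deserts. Of these 5 regions, only the one beyond Cdh20 was called later, in all 4 libraries of day 5.

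Members were spread over 2125 nearest genes, of which 1513 had 1 member, 387 had 2 and 225 had 3 or more. Nearest means the gene with the closest end and is not evidence of regulation. KO-only regions were nearest to 2529 genes, and the 872 genes nearest to both kinds were 41.0% of the first set and 34.5% of the second. Genes with the most members were Adam6a (21 members, 3 KO-only regions), Zfp386 (12 and 4), Tenm4 (10 and 3), Pde4d (9 and 4), Dpp10 (7 and 2) and Pcdh17 (7 and 11). Adam6a lies inside the immunoglobulin heavy-chain locus and Zfp386 beside it, and Tenm4, Pde4d and Dpp10 are genes 740 to 1514 kb long. Tenm4 encodes a teneurin, a cell-surface protein known for a role in early mesoderm.

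A set of 36 members was in the immunoglobulin heavy-chain (Igh) locus on chromosome 12, where B cells join V, D and J segments to build antibody genes. Between its outer annotated segments, chr12:113428514-116009954, 36 of 69 reproducible distal regions (52.2%) were members, 7 were KO-only and 19 were called in all 4 libraries. Elsewhere on chromosome 12 the member share was 11.9% of 1328 regions. Counting every summit in the locus, the control libraries had 90 and 83 at day 3 and KO had 43 and 33. The ranges did not overlap, which is the contrast that chose the members. At day 5 there were 36 and 26 in KO_D5, from lists of 48391 and 42129 summits. In iFoxk1_ND_D5 there were 8 and 25, from lists of 14519 and 34040. Both KO_D5 lists were the longer, so these raw counts do not compare the genotypes. At day 10 there were 27 and 18 in Control_D10 and 9 and 17 in KO_D10, with the longer lists in Control_D10. Of the 36 members, 7 lay on an annotated V segment. The V segments are near-copies of one another, so reads there may map to more than 1 place, and what the submitters did with such reads is not given in the sources used here.

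Linking members within 100 kb of each other gave 2547 groups, of which 2116 were lone members, 431 held at least 2, 107 at least 3 and 30 at least 4. The largest, of 9 members, was in the Igh locus at chr12:113450130-113688567. Of the groups of 6 next to it in size, the one in Rftn1, chr17:50010148-50100090, was the sharpest. Rftn1 encodes raftlin, a protein of lipid rafts. The 90 kb span held 6 summits in each control library at day 3, 0 summits in both KO_D3 libraries and 0 in all 8 later libraries, so all 6 of its reproducible regions were members. The outer members set the ends of this span. By nearest gene, Rftn1 had 7 reproducible distal regions, and the 1 called in all 4 libraries lay outside the span. A second Igh group, chr12:114391761-114495924, had 6 and 7 summits in the control libraries, 1 and 0 in KO_D3 and 0 in all later libraries.

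The groups near Trabd2b (chr4:114300551-114558721) and Plekha5 (chr6:140269988-140533051) behaved otherwise. Trabd2b encodes a protease that acts on Wnt ligands. Its span had 11 and 11 summits in control and 5 and 4 in KO at day 3, then 9 and 5 in KO_D5 and 1 and 9 in iFoxk1_ND_D5, and its members had a median rank of 39.1%. Around Plekha5 there were 11 and 13 summits in control and 8 and 5 in KO at day 3. Members of both groups therefore stood among regions that KO also called. A group of 5 near Hrh1 and Atg7 (chr6:114504701-114599691) lay in a stretch dense with summits in every library, 31 and 32 in control and 34 and 27 in KO at day 3 and 11 to 16 at day 10, so its members stood among many calls of both genotypes.

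Developmental genes were unevenly represented among the nearest genes. The share of a list's reproducible distal regions that were members is read beside 10.6% for all genes, and the lists were drawn up with earlier results of these data known. For 25 genes of the streak and of nascent mesoderm, 16 of 63 regions were members (25.4%) and 7 were KO-only (11.1%). For regulators of cardiac progenitors, 20 of 111 were members (18.0%) and 9.01% KO-only. Epiblast genes had 6 of 105 (5.71%, KO-only 14.3%), pluripotency genes 6 of 77 (7.79%, KO-only 15.6%) and neural genes 3 of 58 (5.17%, KO-only 15.5%). The streak list thus stood above the share for all genes and the epiblast, pluripotency and neural lists below it, with KO-only shares in the other order. Fibroblast genes, the marker list for leftover feeders, had 6 of 20 (30.0%) members and 25.0% KO-only, both above the shares for all genes.

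**Figure D2:**
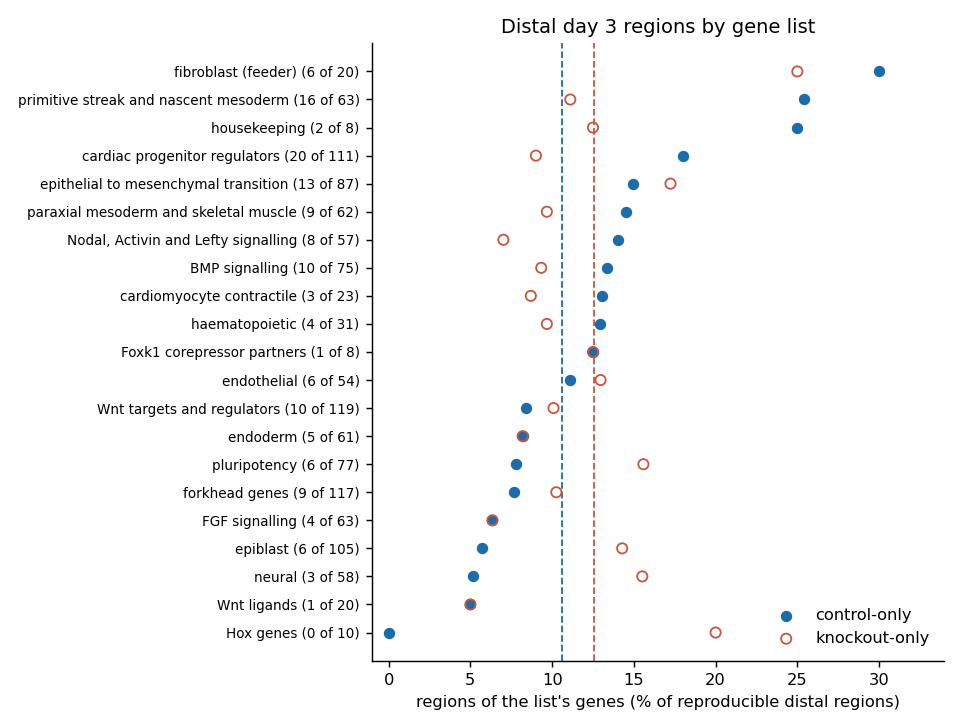
For each of 21 gene lists (y axis, with members of reproducible distal regions in brackets), the percent of reproducible distal day 3 regions nearest to its genes that were control-only (filled) or KO-only (open); dashed lines give 10.6% and 12.5% for all genes. The streak list stands at 25.4% control-only and 11.1% KO-only, and the epiblast list at 5.71% and 14.3%.

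Among streak genes, 8 of 25 had a member. Gsc, a homeobox gene of the organizer, had 4 of its 5 regions as members and no KO-only region. The best, chr12:104486405-104486421, was 13.2 kb from the gene, ranked at 29.8% and 28.2% with scores of 19.8 and 21.9, and was not called at days 5 or 10. Eomes, the T-box factor that starts mesoderm and endoderm, had 3 members of 7 regions, 21.5, 33.1 and 93.4 kb from the gene, with mean ranks of 67.6%, 93.1% and 59.2%, and 4 regions called in all 4 libraries. Eomes itself therefore kept several distal regions in KO while Gsc, by nearest gene, had none called in all 4. KO summits were still called around Gsc. The span chr12:104433279-104555476 held 12 and 11 summits in the control libraries at day 3 and 7 and 5 in KO. It held 1 distal region called in all 4 libraries, which was not nearest to Gsc.

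Pdgfra, a receptor of nascent mesoderm, had the best-ranked streak member, chr5:75385903-75385956, 188 kb away, at 22.9% and 25.2%, with a KO summit 2120 bp off and no later call. Aplnr, the receptor for apelin and Elabela, had 2 members of 3 regions. The stronger, chr2:85160735-85160762, ranked at 32.7% and 35.5% and was called at day 5 in both control libraries and in neither KO library. The weaker, less than 1 kb away at a mean rank of 81.5%, was called at day 5 in KO_D5 replicate 1 only. Lhx1, a LIM homeobox gene, had 2 members with mean ranks of 55.3% and 58.0%, and both were called again in iFoxk1_ND_D5 replicate 2, the first also in KO_D5 replicate 2. Cyp26a1, which breaks down retinoic acid, had 2 of 2 regions as members, at mean ranks of 52.2% and 75.02%, both called again in iFoxk1_ND_D5 replicate 2. Gata6 and Mixl1 had 1 weak member each, at mean ranks of 82.6% and 97.6%. Of the 16 streak members, 9 had no later summit, 5 had one in a control library of day 5, 3 in a KO library of day 5 and 0 at day 10. Over all members the shares were 75.5%, 14.3%, 16.3% and 2.01%. By the main rule the streak list had 16 of 3134 members. Without iFoxk1_ND_D3 replicate 1 it had 27 of 7016, and without replicate 2 it had 20 of 7129. With a gene distance of more than 50 kb it had 5 of 1753. In each of these other settings it was a smaller part of all members.

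In the cardiac progenitor list the members sat at 9 genes. Bmp2, a ligand of the BMP pathway that is needed for heart formation, had 6 of 17 regions as members, 10 called in all 4 libraries and no KO-only region. These lay 30.4 to 292 kb from Bmp2 at mean ranks of 54.0% to 84.8%, and none was called later. Mef2c, a MADS-box factor of the second heart field, had 4 members of 25 regions, with 15 called in all 4 libraries and 2 KO-only. Isl1, a LIM homeobox marker of that field, had 3 of 14, with 7 called in all 4 libraries and 2 KO-only. The best Isl1 member, chr13:116577728-116577755, ranked at 29.2% and 27.9%, 268 kb from the gene, and was not called later. A member inside Fgf10, chr13:118759044-118759058, ranked at 22.7% and 29.1% and was called in all 4 libraries of day 5. Foxc1 had 2, Gata4, Gata6 and Hey2 had 1 each, and 16 of the 20 had no later summit.

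Of the signalling lists, those of the Nodal and BMP pathways were just above the share for all genes, with 8 of 57 (14.0%) and 10 of 75 (13.3%). Bmp2 alone held 6 of the 10 BMP members and 17 of the 75 regions, and without Bmp2 the BMP list was below the share for all genes. The same 6 members are also counted in the cardiac progenitor list. The Nodal members included those at the activin receptors Acvr2a (2) and Acvr2b (1), the activin subunits Inhba and Inhbb and the common mediator Smad4 (2). BMP members other than those of Bmp2 were at the receptor Bmpr1b (2), the ligand Bmp5 and the decoy receptor Bambi. The best, inside Bmpr1b at chr3:141941284-141941288, ranked at 30.6% and 24.1%. In the FGF list, 4 of 63 (6.35%) were members, at Fgf10, Spred1 and Spred2 (2), the last a pair of inhibitors of the pathway.

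Wnt ligands had 1 member of 20 regions and Wnt targets and regulators 10 of 119 (8.40%). Axin2, a feedback inhibitor and common reporter of Wnt activity, had 2. The nearer, chr11:108906878-108906914, lay 10.9 kb from Axin2, ranked at 35.9% and 40.4%, and was called at day 5 in both control libraries and in neither KO library. Rspo3, a secreted enhancer of Wnt signalling, also had 2; Myc, Fzd8, Dkk1, Lef1, Fzd10 and Tcf7l2 had 1 each. A member 246 kb from Fzd8 was called in all 4 libraries of day 5.

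Forkhead genes, the family of Foxk1, had 9 of 117 regions as members (7.69%), among them Foxo6 (3), Foxc1 (2), Foxa1 and Foxp1, and none nearest to Foxk1 or Foxk2. The best of these, chr12:57572557-57572573, was 24.5 kb from Foxa1 at a mean rank of 22.6%. Epiblast members included those at Cdh2 (3), Lef1 and Sox3, and pluripotency members at Klf4 (2), Zfp42 (2), Klf5 and Prdm14. Their median ranks were low, 81.5% and 83.4%, and none of the 6 in either list had a later summit. Paraxial mesoderm and skeletal muscle genes had 9 of 62 (14.5%, KO-only 9.68%). Epithelial to mesenchymal transition genes had 13 of 87 (14.9%, KO-only 17.2%), and Cdh2, Crb2 and Zeb2 held 3 of the 13 each. The muscle and transition lists were both just above the member share for all genes. The other lists were closer to that share or rested on few regions. These were endothelial 6 of 54, haematopoietic 4 of 31, contractile 3 of 23 and endoderm 5 of 61. Foxk1 corepressor partners had 1 of 8, housekeeping genes 2 of 8 and Hox genes 0 of 10.

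Days 5 and 10 were not used to choose the members. A member was taken as found again where a later library had a summit within 250 bp. Most were not: 2367 of 3134 (75.5%) had no summit in any of the 8 later libraries, against 51.9% of KO-only regions and 14.4% of regions called in all 4. In iFoxk1_ND_D5, 150 members (4.79%, exact Clopper-Pearson 95% interval 4.07 to 5.59) and 426 (13.6%, 12.4 to 14.8) were found again. In KO_D5 the counts were 391 (12.5%, 11.3 to 13.7) and 288 (9.19%, 8.20 to 10.3). The intervals cover counting error only. The range over the control libraries, 4.79% to 13.6%, held both KO values, with means of 9.19% ± 6.23 (SD, n = 2) in iFoxk1_ND_D5 and 10.8% ± 2.32 (SD, n = 2) in KO_D5.

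**Figure D3:**
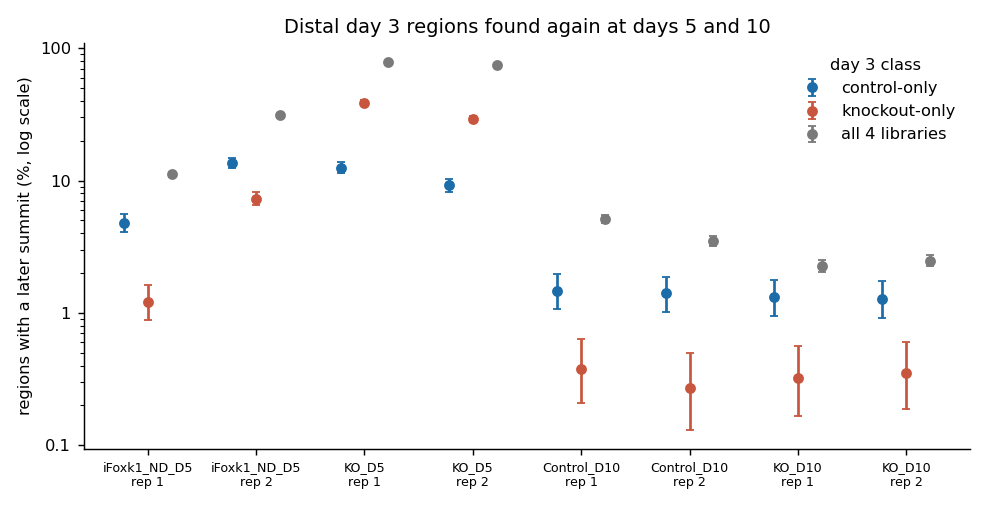
Percent of distal day 3 regions with a summit within 250 bp in each later library (y axis, log scale; bars are exact 95% binomial intervals), for control-only, KO-only and all-4 regions. Control-only regions lie between the other classes in the control libraries and at day 10, and below both in KO_D5 (12.5% and 9.19%).

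The length of the later lists bears on these counts. With every day 5 list reduced to its 14519 highest-scoring summits, the length of the shortest, 150 and 111 members were found in iFoxk1_ND_D5 and 0 and 3 in KO_D5. Regions of all 4 libraries, in the same reduced lists, were found more often in KO_D5 (20.4% and 21.2%) than in iFoxk1_ND_D5 (11.1% and 11.6%). The members called in KO_D5 were therefore in the lower part of its lists, where their median rank was 75.2% and 78.4%. In iFoxk1_ND_D5 the median rank of recalled members was 69.1% and 64.7%.

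The classes were also compared within each library, as the share of members among the members and KO-only regions that it found again. Members were 45.8% of the 6842 regions of these kinds at day 3. They were 76.9% (70.4 to 82.6) and 61.1% (57.4 to 64.8) of those found in iFoxk1_ND_D5, and 21.4% (19.5 to 23.3) and 20.9% (18.8 to 23.2) of those found in KO_D5. The day 5 groups did not overlap, and both control libraries were above the day 3 share and both KO libraries below it. At day 10 the share was 76.7% and 81.5% in Control_D10 and 77.4% and 75.5% in KO_D10, so all 4 libraries were on the control side and the groups overlapped. This share also moved with list length: with equal lengths within a day it was 76.9% and 74% in iFoxk1_ND_D5, 0% of 42 and 6% of 50 regions in KO_D5, 80.95% and 79.3% in Control_D10, and 77.4% and 78.6% in KO_D10.

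KO minus control was −47.9 percentage points at day 5 and −2.66 at day 10, with a mean of −25.3 over the days. A two-sided exact permutation of the genotypes within days gave p = 0.111 over 36 arrangements, and the smallest p this design allows is 0.0556, so no difference could pass 0.05. With equal list lengths the mean was −37.3, with an exact permutation p of 0.0556 (0.0556 to 0.333 over all tested alternatives). The difference between the days, −45.2 percentage points, had an exact permutation p of 0.278. Within a day, 2 libraries against 2 allow no p below 0.333, and none was taken. Given the D7 tag in the KO_D5 peak names, genotype and day of harvest cannot be told apart at day 5.

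**Figure D4:**
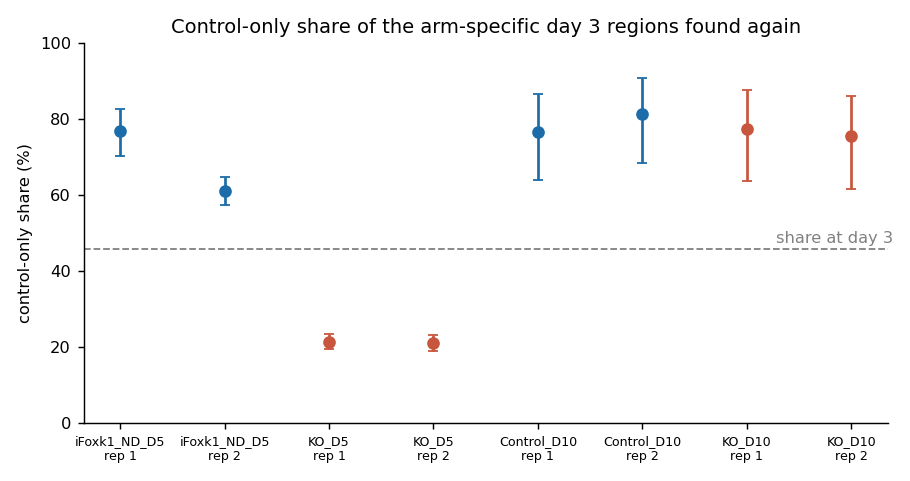
Control-only share of the arm-specific distal day 3 regions found again in each later library (y axis, percent; bars are exact 95% intervals), with the day 3 share of 45.8% dashed; control libraries are blue and KO libraries red. The KO_D5 libraries stand at 21.4% and 20.9%, and the other 6 libraries between 61.1% and 81.5%.

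Of the 91 members in the best 25% of the day 3 lists, 5.49% and 15.4% were found in iFoxk1_ND_D5; the share was highest in the next 25%, at 8.55% and 19.6%, and was 3.36% and 12.1% of the 1100 in the last 25%. Members found in iFoxk1_ND_D5 replicate 1 had a median day 3 rank of 58.1%, against 67.8% for the others. In KO_D5 the values were 12.1% and 6.59% for the best and 13.0% and 9.09% for the last. KO-only regions were unlike this in their own genotype: 89.3% of the 56 in the best 25% were found in each KO_D5 library, and 27.8% and 17.6% of those in the last 25%. Regions called in all 4 libraries also fell with rank, from 90.7% and 89.9% to 62.3% and 53.8% in KO_D5 and from 22.8% and 48.7% to 2.96% and 14.6% in iFoxk1_ND_D5. Even the best-ranked of these, open in both genotypes at day 3, were found in less than 50% of cases in iFoxk1_ND_D5.

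**Figure D5:**
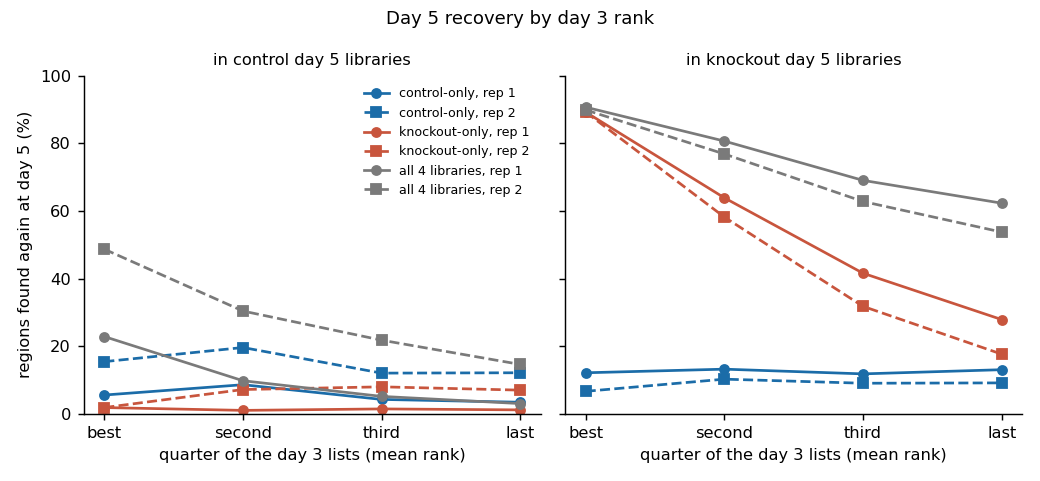
Percent of distal day 3 regions found again at day 5 (y axis) by the 25% class of their mean day 3 rank (x axis), in control libraries (left) and KO libraries (right); circles are replicate 1 and squares replicate 2. Control-only regions stay between 3.36% and 19.6% in every class and library, while KO-only regions of the best class reach 89.3% in KO.

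By pattern, 744 members (23.7%) had a summit in at least 1 library of day 5. They were called in 1 or both KO libraries only in 297 cases, in 1 or both control libraries only in 234, and in all 4 libraries in 49. Members called in both iFoxk1_ND_D5 libraries with no KO_D5 summit within 1 kb, the day 3 rule applied again, numbered 40 (1.28%). By the same call, 2.45% of 16585 reproducible distal regions of day 5 were control-only. The reverse, called in both KO_D5 libraries with no control summit within 1 kb, held for 76 members (2.43%) and for 57.3% of the day 5 regions. With equal list lengths the counts were 69 and 0, and the shares of 3489 day 5 regions were 20.2% and 37.7%. These shares have unlike bases. The day 5 regions were all called in both libraries of at least 1 genotype, while 76.3% of members had no summit at day 5. Of members called in both iFoxk1_ND_D5 libraries, 43, 37 and 49 were called in 0, 1 and 2 KO_D5 libraries. Of those called in both KO_D5 libraries, 76, 44 and 49 were called in 0, 1 and 2 control libraries. Without iFoxk1_ND_D5 replicate 1, the shortest list, 207 members were control-only again, and without KO_D5 replicate 1, 66 were. The count of 76 rose to between 128 and 217 when any 1 of the 6 libraries of KO_D3, iFoxk1_ND_D3 or KO_D5 was left out.

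Among the best-ranked of the 40 were regions near Ccdc54, Tsga8, Abhd17b, S100a7l2, Serpinb9g, Gpr158, Axin2, Ptprd and Gm38702. The first, chr16:50530190-50530263, lay 59.6 kb from Ccdc54 and ranked at 27.9% and 20.2% at day 3 and at 39.0% and 44.1% in iFoxk1_ND_D5. A KO_D3 summit lay 1234 bp from it, just beyond the limit. The second lay 36.8 kb from Tsga8 inside Dmd, the dystrophin gene (31.5% and 34.8%). Members inside Gpr158 and Ptprd were 66.0 and 371 kb from the ends of those genes. Together the 40 had a median day 3 rank of 58.2%, against 67.6% for all members.

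Few members were called at day 10, when lists were short. Control_D10 found 46 and 44 (1.47% and 1.40%) and KO_D10 41 and 40 (1.31% and 1.28%) in the full lists. The Control_D10 lists were the longer, and with every day 10 list reduced to 4028 summits the order turned, with 17 and 23 members in Control_D10 and 41 and 33 in KO_D10 (means of 0.638% and 1.18%). KO-only regions were found in 0.270% to 0.378% of cases in the 4 libraries and regions of all 4 libraries in 2.28% to 5.12%. In all, 63 members (2.01%) had a day 10 summit, and 27 of them were in all 4 libraries, so a day 10 call was often shared by both genotypes. Only 1 was called in both Control_D10 libraries and neither KO_D10 library, and 1 the other way.

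The members at day 10 were weak at day 3, with a median rank of 75.1% in the day 3 control lists. Their median ranks were 49.0% and 50.5% among Control_D10 summits and 25.5% and 33.8% among those of KO_D10. The day 10 lists were far shorter, so these ranks do not compare strength between the days. In the Igh locus lay 7 and 5 of the members found in Control_D10 and 4 and 5 of those found in KO_D10. Others with low day 3 ranks lay near 4930467E23Rik, Gm15319, Gm3373, Gm3488 and Zfp978. Whether reads that map to more than 1 place bear on these calls was not tested. Of the 63, 23 had no day 5 summit, against 5 of 966 regions of all 4 libraries that were called at day 10. The best-ranked at day 3 were near Pls3, Tmem121, Hrh1, Ust, Ccdc54, Washc2, Gm281 and Mex3c. The one 146 kb from Tmem121, chr12:113335496-113335498, at the constant-region side of the Igh locus, stood at 2.23% and 2.52% of the Control_D10 lists and at 4.54% and 5.47% of the KO_D10 lists. A KO_D3 summit was 1418 bp from it. Members in Washc2, a gene of the endosomal WASH complex, and in Gm281 were called in all 4 day 10 libraries and in no day 5 library.

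By place, members 10 to 50 kb from a gene end were found again in 15.8% and 10.9% of cases in KO_D5 and in 5.43% and 15.8% in iFoxk1_ND_D5. Members inside genes (13.1% and 10.6% in KO_D5) and between genes (12.04% and 8.31%) differed by less than the libraries did. Across chromosomes, the member share of reproducible distal regions ran from 7.62% on X to 13.9% on chromosome 12, where the Igh locus lies, with 12.9% on chromosome 17.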

How the data were processed

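Bowtie2 2.2.4, MACS2 and the mm10 build are named in the submitters' processing notes; the MACS2 version and any filters are not given in the sources used here. The deposited lists, 1 per library, give each peak's summit and score, a −log10 p-value or q-value (which one is not given). Summits were merged with Python 3.11.15; gene ends came from RefSeq GRCm38.p6 (21631 protein-coding genes). Members and gene lists (421 of 423 entries matched) were chosen with earlier results of these data known. Named are the 12 best-ranked members, genes with the most members, those of the lists (the best 6 where over 10), those control-only again at day 5 (best 10), those at day 10 (best 8), the 5 farthest and the largest groups; single regions beyond these were named after their values were seen. The rule was tested on simulated summits (100.0% of 800 planted regions found). Replicate lists shared at most 3.74% of summits at the same base. Replicate numbers did not pair libraries (correlations of 0.00109 to 0.0248 between the genotypes' replicate differences). Motifs in the regions themselves were not analysed here, and start windows on chromosome 18 were not used here. A few members that this rule names are not reported here.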

Additional observations from a re-analysis of the deposited data

How the results depend on the processing

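The count of members was 1753 with a gene distance of more than 50 kb, and ran from 3934 to 7129 when 1 day 3 library was left out (7016 without iFoxk1_ND_D3 replicate 1). The count that was control-only again at day 5 was 21 with that gene distance and 69 with equal list lengths, and ran from 40 to 207 when 1 library was left out. The mean KO minus control difference in member share kept its sign in all 29 alternatives: over the 26 with a test it had p from 0.0556 to 0.333. On the share scale these gave −37.3 (equal list lengths) to −19.2 percentage points, and as a difference of recovered percents the value was −14.2. With the replicate number as a block the difference was −25.3 with an exact permutation p of 0.25, where 0.125 is the smallest p allowed. Alternatives chosen after seeing the data, without the Igh regions and with only the better-ranked 50% of regions, gave −25.1 and −32.2. List lengths that differ between libraries, and 2 libraries a group, limit every value here.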
